A study of Homo sapiens with 24 samples.

Results

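Extracellular matrix proteins other than collagens were followed as 47 listed genes, chosen by name from a list of matrix glycoproteins, proteoglycans and laminins, of 21386 genes with a count in the RNA-seq tables. They fall into 6 classes: 11 genes of fibronectin and the matricellular glycoproteins, 10 laminin chains, 4 nidogens and basement membrane proteoglycans, 6 cell-surface proteoglycans, 5 interstitial proteoglycans and 11 genes of elastic fibres and microfibrils. The study asked what loss of MCM7, a subunit of the helicase loaded onto replication origins, does to invasive cancer cells in which DNA replication is held back. It sequenced total RNA of A375, a human melanoma line, and A549, a human lung adenocarcinoma line, in 24 libraries. In each line shMCM7 cells, which carry a lentiviral short hairpin RNA against MCM7 that is expressed on addition of doxycycline (Dox), and parental cells, which carry no hairpin, were kept for 72 h with or without 1 µg/ml Dox, giving 8 groups of 3 replicates. Every culture, controls included, was arrested at the G1/S boundary by a double thymidine block. The shMCM7 cells were populations selected with puromycin and not single clones, and since parental cells were neither transduced nor selected, the hairpin cannot be told apart from transduction and selection where shMCM7 and parental cells are compared.

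The matrix around a cell is built in layers that these genes divide between them. Laminin trimers of an alpha, a beta and a gamma chain assemble into the basement membrane sheet, which nidogens and the large heparan sulfate proteoglycans perlecan and agrin tie to the collagen IV network, while fibronectin, fibrillins, fibulins and small leucine-rich proteoglycans organise the looser interstitial matrix. Matricellular proteins such as thrombospondins, SPARC, tenascin and periostin are secreted into that matrix and act on adhesion and growth factor availability, and the latent TGF-beta binding proteins store TGF-beta in microfibrils; syndecans and glypicans are the heparan sulfate proteoglycans of the cell surface itself.

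The hairpin is aimed at a site that was found whole only in MCM7 transcripts of GENCODE 29 (GRCh38). The site lies on the minus strand, spans an exon junction, and covers chr7:100097728-100097836 in the genome with the intron included. It is shown because any change in a matrix gene is read against it, and its capitals mark the letters that pair with positions 2 to 8 of a guide that is its exact complement.
MCM7 target site: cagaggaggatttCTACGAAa
The letters CTACGAA occurred in the 3′ UTR of 0 of 46 members and in 163 of 14933 tested genes with an annotated 3′ UTR (1.092%).

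A375 libraries held 146656792 to 283721575 counts and A549 libraries 17911338 to 23452823, so a low gene is measured more tightly in A375. In A375 shMCM7 cells MCM7 was at 76.8, 76.4 and 77.2 CPM, the count scaled to library size, with Dox and at 131, 353 and 359 without (log2 fold change -1.87 ± 0.30 SE, edgeR quasi-likelihood test, adjusted p = 0.00116, n = 3 and 3), while all 6 parental libraries lay between 342 and 370. Uninduced replicate 1 thus stands apart, and the member counts are given with and without it. In A549 MCM7 went against the labels: it was low in the libraries labelled shMCM7 Dox replicate 3 (95.3 CPM), shMCM7 noDox replicate 2 (99.7 CPM) and parental noDox replicate 2 (88.6 CPM) and between 299 and 339 in the other 9. Of the defining markers, A375 libraries held the melanocyte lineage gene SOX10 at 501 to 677 CPM, but the pigment genes MLANA and TYR had at most 3 counts in any of them. A549 libraries held keratins 7, 8 and 18 at 1630 to 2757 CPM and at most 3 counts of the lung epithelial genes NKX2-1 and SFTPB. Other listed markers were mixed. S100B was at 25.1 to 35.2 CPM in A375 and 0 in A549, and CDH1 at most 0.16 CPM in A375 and at least 55.3 CPM in A549. The melanocyte marker MITF overlapped, at 26.7 to 45.1 CPM in A375 and 35.7 to 51.9 CPM in A549. The epithelial marker MUC1 was higher in A375, at 4.83 to 7.35 CPM against 1.45 to 4.46 CPM.

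In A375 shMCM7 cells, mRNA of fibronectin, 3 thrombospondins, periostin, agrin and perlecan was higher with Dox, and mRNA of 4 of 10 elastic fibre and microfibril genes, 2 of 6 cell-surface proteoglycans and 4 members of other classes was lower. Calls are at a fold change of at least 1.5, p under 0.01 and a Benjamini-Hochberg adjusted p under 0.05 over all genes tested in edgeR. Of 46 members tested (fibulin-2, FBLN2, was too low), 7 were up-regulated (15.2%), namely THBS4, THBS1, POSTN, FN1, THBS3, AGRN and HSPG2, where 5.58% of all 16087 tested genes were up-regulated. The 10 down-regulated members (21.7%) were MATN3, FBLN5, NID2, LUM, FBN2, LTBP1, FBLN1, SDC4, LAMC3 and SDC1, beside 6.45% of all tested genes. The median log2 change was -0.03 over the members and 0.00 over all genes, and the median size of the change without its sign was 0.43 and 0.21. All induced libraries were above all uninduced ones in 14 members and below them in 16, as in 26.3% and 28.1% of all tested genes. Without uninduced replicate 1 the calls were 7 and 12, GPC4 and BGN being the additions. In parental cells, which received Dox but hold no hairpin, none of 46 members and 0 of 15993 genes (0.0%) were called in edgeR. There 2 members and 1121 genes had an unadjusted p under 0.05, and DESeq2 called 3 genes, all up-regulated.

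**Figure D1:**
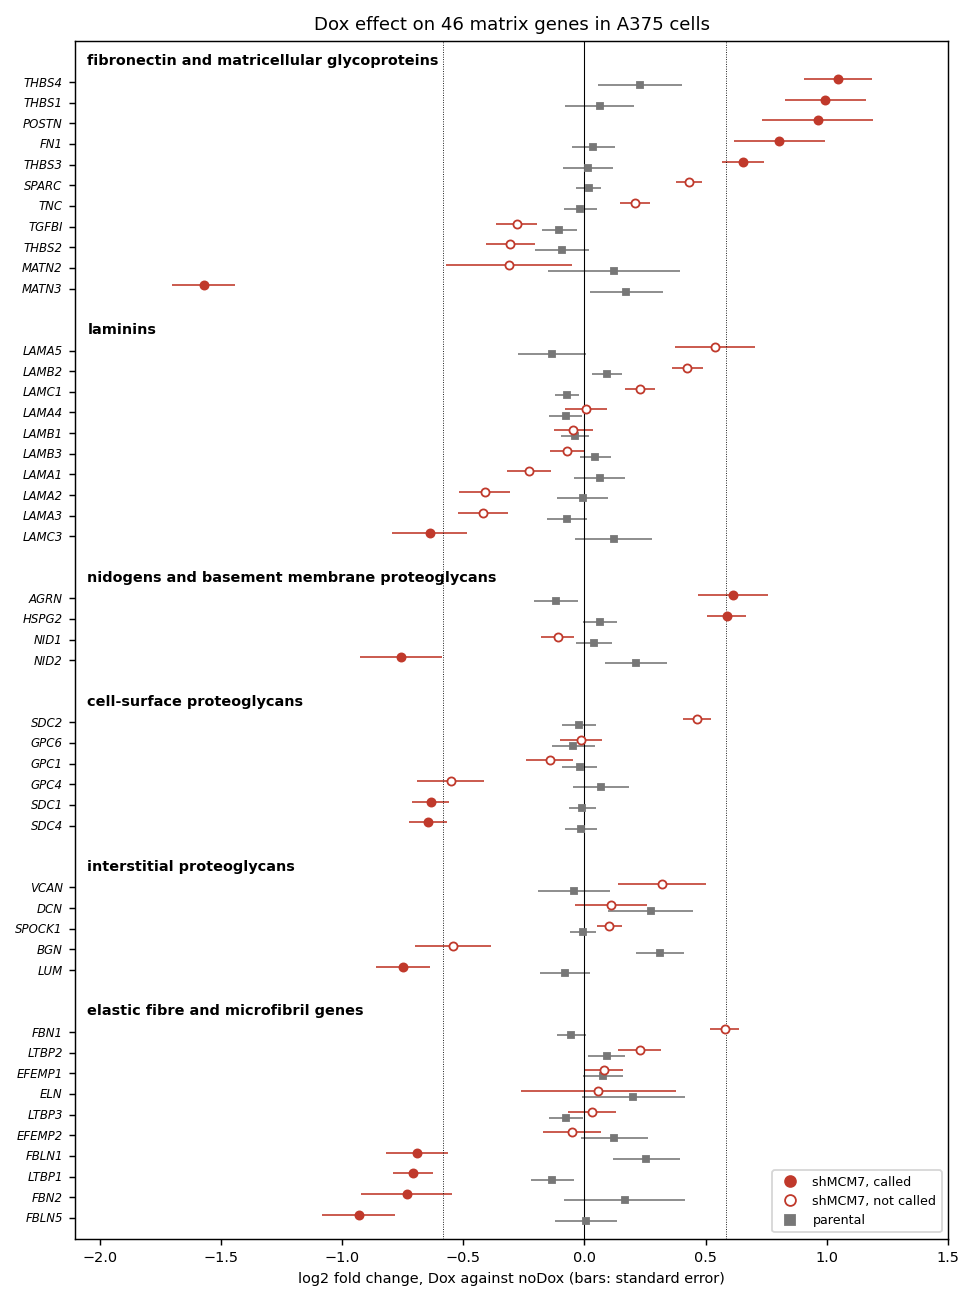
Log2 fold change with Dox (x axis, point and bar are the edgeR estimate ± SE, n = 3 and 3) of the tested members by class in A375 cells, as circles for shMCM7 cells (filled where called) and squares for parental cells, with dotted lines at 1.5-fold. Upward calls sit in the matricellular and basement membrane classes and parental points lie near 0. The parental point of POSTN (3.15 ± 1.06) lies beyond the axis and is left out.

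Fibronectin, the adhesive glycoprotein that fibroblasts and many tumour cells assemble into fibrils, was at 895, 1037 and 853 CPM in the induced shMCM7 libraries and at 730, 458 and 405 CPM in the uninduced ones. The 2 sets did not overlap, and the uninduced library nearest to the induced ones was replicate 1, the one with low MCM7. FN1 was up-regulated with a log2 fold change of 0.80 ± 0.19 (edgeR, adjusted p = 0.00741), or 1.1 ± 0.10 without that library. Parental libraries held FN1 at 597, 718 and 591 CPM with Dox and 680, 628 and 546 CPM without, overlapping each other and lying above 2 of the 3 uninduced shMCM7 libraries.

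Thrombospondins are oligomeric glycoproteins of which THBS1 is known to activate latent TGF-beta and to restrain angiogenesis. THBS1 was at 3138, 3598 and 2919 CPM with Dox in shMCM7 cells against 2125, 1453 and 1265 CPM without. Every induced library was above every uninduced and every parental one, the highest parental library being at 1566 CPM. The log2 fold change was 0.99 ± 0.17 (edgeR, adjusted p = 0.00144) and 1.24 ± 0.10 without uninduced replicate 1. THBS3, a pentameric thrombospondin, was at 47.2, 51.7 and 59.1 CPM with Dox against 31.3, 35.9 and 33.1 CPM without (log2 0.65 ± 0.09, edgeR adjusted p = 0.000406). Its call was lost without induced replicate 3, at a log2 change of 0.57. THBS4, another pentameric thrombospondin, was at 1.41, 1.66 and 1.86 CPM with Dox and 0.822, 0.791 and 0.770 CPM without (log2 1.05 ± 0.14, edgeR adjusted p = 0.000431). Its parental libraries were lower still, between 0.479 and 0.715 CPM. THBS2 had a log2 change of -0.31, under the fold threshold.

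SPARC, a collagen-binding matricellular protein and the most abundant member per exon length in A375, was at 2539, 2578 and 2485 CPM in induced shMCM7 libraries and 1900, 1900 and 1827 CPM in uninduced ones. All induced libraries lay above all others, and the adjusted p was 0.000281 in edgeR, but the log2 change of 0.43 ± 0.05 is under the 1.5-fold threshold, so SPARC was not called. Periostin (POSTN), a matricellular ligand of integrins, was at 1.23, 1.77 and 2.0 CPM with Dox and 0.618, 0.874 and 1.06 CPM without (log2 0.96 ± 0.23, edgeR adjusted p = 0.00804). Its call was lost without induced replicate 3 (log2 0.81) and in a fit that shared the dispersion over all 12 A375 libraries (adjusted p = 0.358). Parental Dox replicate 3 stood apart at 3.74 CPM while the other 5 parental libraries lay between 0.0902 and 0.187 CPM. That library also held the fibroblast collagens COL1A1 at 13.5 CPM, COL3A1 at 8.89 CPM and COL1A2 at 2.39 CPM, the last at most 0.24 CPM elsewhere in A375. Whether other cells or RNA contributed to POSTN was not tested.

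Matrilin-3 (MATN3), an adaptor between matrix filaments best known from cartilage, had the largest decrease of any member. It was at 0.90, 1.06 and 0.844 CPM with Dox and at 2.53, 2.98 and 2.78 CPM without, and parental libraries lay between 1.80 and 2.80 CPM. The induced libraries were lower than all other 9, with a 2.97-fold decrease (log2 -1.57 ± 0.13, edgeR adjusted p = 5.97e-05). The related MATN2, tenascin C (TNC) and TGFBI, an integrin-binding protein induced by TGF-beta, were not called, TGFBI with a log2 change of -0.28 and TNC with 0.21.

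**Figure D2:**
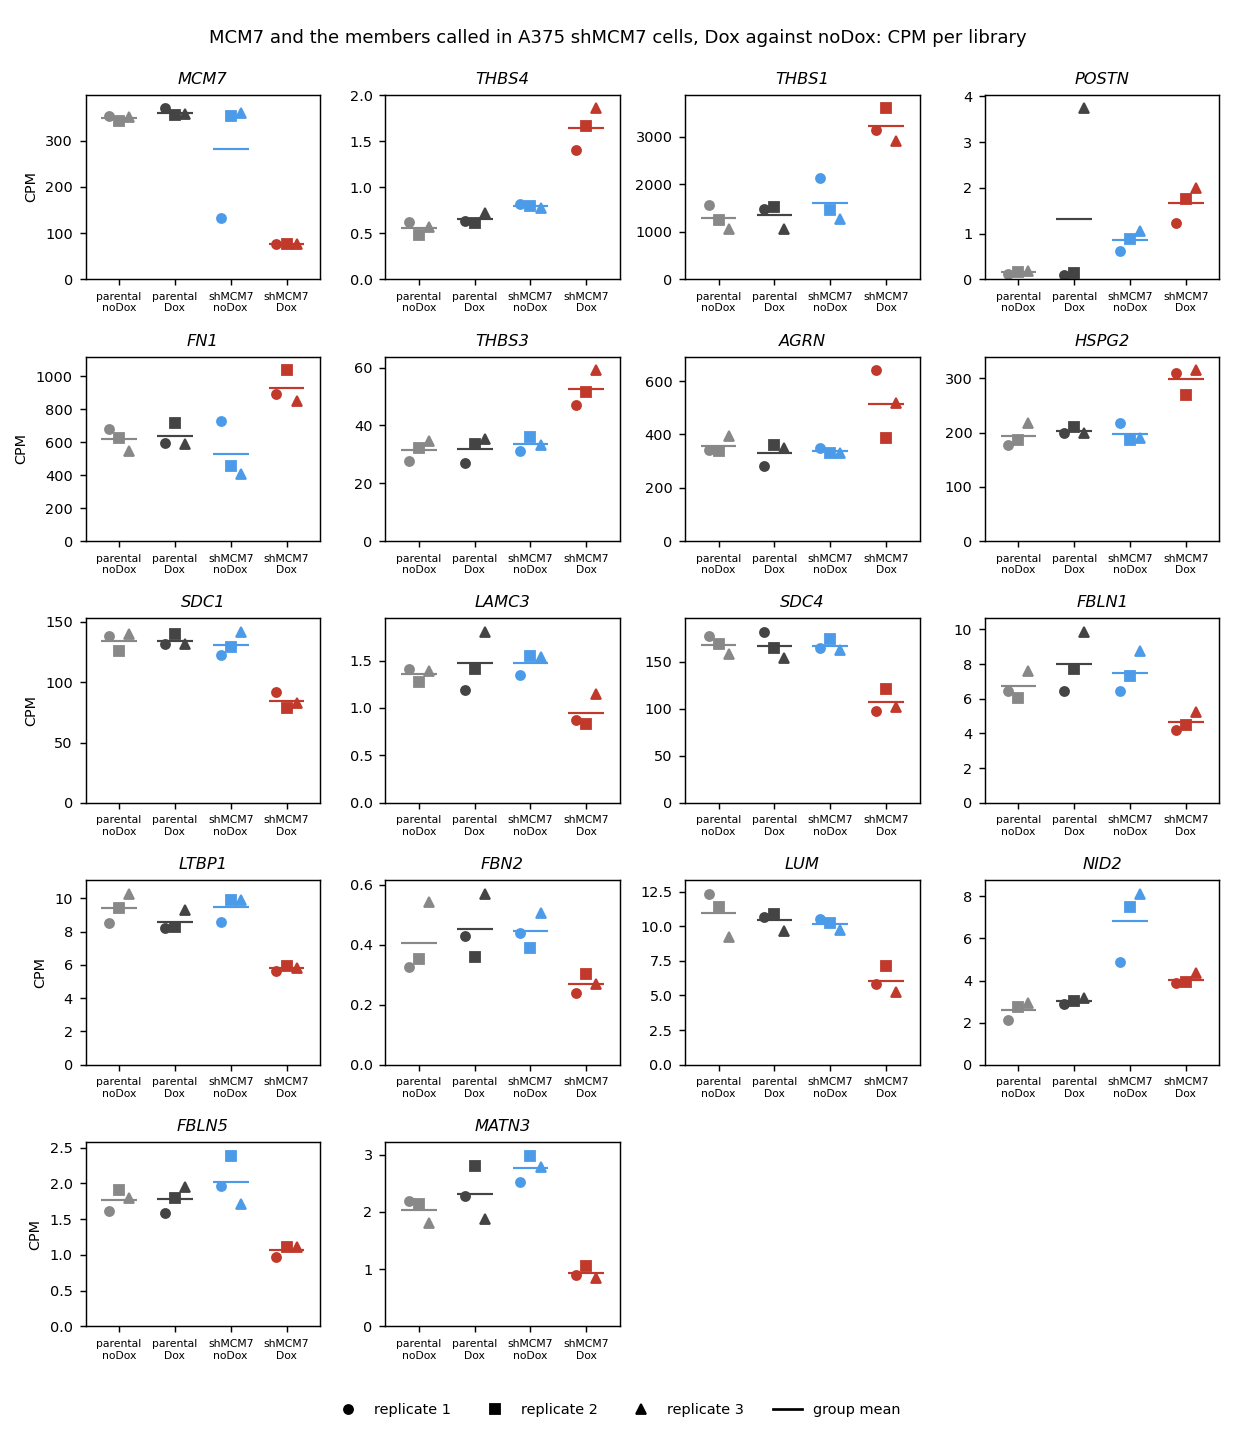
CPM (y axis, from 0) of MCM7 and the 17 called members in each of the 12 A375 libraries by group, where each symbol is a library (its shape the replicate number) and the line is the group mean. FN1 and THBS1 are highest in the 3 induced libraries, with uninduced replicate 1 next at 730 and 2125 CPM, and MATN3 is lowest there.

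Of 10 laminin chains tested, 1 was down-regulated, LAMC3, and 0 were up-regulated. LAMC3, a gamma chain of few tissues, was at 0.868, 0.829 and 1.15 CPM with Dox against 1.35, 1.55 and 1.53 CPM without (log2 -0.64 ± 0.16, edgeR adjusted p = 0.00917). Leaving out induced replicate 1 (log2 -0.57), induced replicate 2 (-0.55) or uninduced replicate 2 (-0.60) each ended the call. LAMA5, LAMB2 and LAMC1, which are an alpha, a beta and a gamma chain, had log2 changes of 0.54, 0.43 and 0.23 at an adjusted p under 0.05 in edgeR without reaching 1.5-fold, and LAMA3 and LAMA2 had -0.42 and -0.41. LAMA5 was at 268, 160 and 229 CPM with Dox and 127, 157 and 167 CPM without, so that the 2 groups overlapped.

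The 2 heparan sulfate proteoglycans of the basement membrane moved one way and a nidogen the other. Perlecan (HSPG2) was at 310, 270 and 315 CPM with Dox against 218, 187 and 190 CPM without (log2 0.59 ± 0.08, edgeR adjusted p = 0.000438), at the edge of the fold threshold: the call was lost without induced replicate 1 (0.56) or 3 (0.55), or uninduced replicate 2 (0.54) or 3 (0.56). Agrin (AGRN), which also clusters receptors at the neuromuscular junction, was at 641, 386 and 518 CPM against 349, 329 and 332 CPM (log2 0.61 ± 0.15, edgeR adjusted p = 0.00806), and its call was lost without induced replicate 1 (0.42). Nidogen-2 (NID2) was at 3.87, 3.92 and 4.36 CPM with Dox and 4.86, 7.48 and 8.12 CPM without (log2 -0.75 ± 0.17, edgeR adjusted p = 0.00608), and its decrease was -0.95 ± 0.09 without uninduced replicate 1. Parental libraries lay lower still, between 2.14 and 3.15 CPM, so NID2 fell toward the parental level and stayed above it. NID2 shares 1915 exonic bases with RTRAF and HSPG2 shares 2121 with LDLRAD2, and since the strand setting of the counting is not given, reads over those bases cannot be assigned.

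Of 6 cell-surface proteoglycans, 2 syndecans were down-regulated and none was up-regulated. Syndecans are transmembrane co-receptors for growth factors and matrix. Syndecan-1 (SDC1) was at 92.2, 78.4 and 82.7 CPM with Dox and 123, 129 and 142 CPM without (log2 -0.63 ± 0.07, edgeR adjusted p = 0.000227), losing its call without induced replicate 2 (-0.58) or uninduced replicate 3 (-0.57). Syndecan-4 (SDC4), a focal adhesion component, was at 97.9, 121 and 102 CPM with Dox and 165, 175 and 162 CPM without (log2 -0.64 ± 0.08, edgeR adjusted p = 0.000274), losing its call without induced replicate 1 (-0.58). In both genes the induced libraries were below all 9 others. Syndecan-2 (SDC2) had the opposite sign, at 35.9, 37.7 and 36.3 CPM against 27.2, 27.1 and 25.3 CPM (log2 0.46 ± 0.06, edgeR adjusted p = 0.00026), without reaching 1.5-fold. Glypican-4 (GPC4), linked to the membrane by a lipid anchor, was at 1.66, 2.16 and 1.98 CPM with Dox and 2.42, 3.13 and 2.91 CPM without (log2 -0.55 ± 0.14, edgeR adjusted p = 0.0107), and was called without uninduced replicate 1 (-0.65) or induced replicate 2 (-0.64).

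Among interstitial proteoglycans lumican (LUM), a regulator of collagen fibril spacing, was at 5.80, 7.14 and 5.24 CPM with Dox and 10.5, 10.3 and 9.69 CPM without (log2 -0.75 ± 0.11, edgeR adjusted p = 0.000751). Parental libraries lay between 9.19 and 12.3 CPM, all above the induced ones. Biglycan (BGN), of the same small leucine-rich family, was at 65.9, 62.9 and 86.3 CPM against 80.5, 109 and 123 CPM, overlapping, and was not called (log2 -0.54 ± 0.16) except without uninduced replicate 1 (-0.70 ± 0.13) or induced replicate 3 (-0.69).

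Elastic fibre and microfibril genes gave 4 of 10 down-regulated and none up-regulated. Fibulin-5 (FBLN5), needed for elastic fibre assembly, was at 0.966, 1.11 and 1.11 CPM with Dox and 1.97, 2.39 and 1.72 CPM without (log2 -0.93 ± 0.15, edgeR adjusted p = 0.00108). LTBP1, which holds latent TGF-beta on microfibrils, was at 5.64, 5.92 and 5.84 CPM against 8.58, 9.88 and 9.92 CPM (log2 -0.71 ± 0.08, edgeR adjusted p = 0.000238). Both had induced libraries below all 9 others and kept their calls whichever of the 6 libraries was left out. Fibulin-1 (FBLN1) was at 4.23, 4.49 and 5.25 CPM against 6.45, 7.32 and 8.73 CPM (log2 -0.69 ± 0.13, edgeR adjusted p = 0.00227) and lost its call without uninduced replicate 3 (-0.56). Fibrillin-2 (FBN2), a microfibril backbone protein of development, was near the bottom of the measured range at 0.237, 0.303 and 0.268 CPM against 0.438, 0.388 and 0.504 CPM (log2 -0.73 ± 0.19, edgeR adjusted p = 0.0116). The call of FBN2 was lost without induced replicate 1 (-0.64) or 3 (-0.73) or uninduced replicate 3 (-0.62). Fibrillin-1 (FBN1), its adult counterpart, had the opposite sign, at 116, 135 and 127 CPM against 83.8, 83.9 and 84.4 CPM, with every induced library above the other 9 (log2 0.58 ± 0.06, edgeR adjusted p = 0.00014) but just under 1.5-fold.

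Markers of other cell types were read beside these values. The summed CPM of 7 fibroblast markers was 29.1 to 39.0 in induced and 19.5 to 26.5 in uninduced shMCM7 libraries. Most of it was PDGFRB, at 20.4 to 28.9 CPM against at most 15.9 CPM in the other A375 groups. COL1A2 (0.091 to 0.141 against 0.172 to 0.242 CPM) and THY1 (0.030 to 0.056 against 0.058 to 0.113 CPM) were lower in induced than in uninduced shMCM7 libraries. PDGFRA (2.88 to 3.31 against 3.20 to 3.89 CPM), COL1A1 and COL3A1 overlapped between them. The endothelial markers summed to 6.72 to 7.65 CPM against 1.94 to 2.21 CPM. Only CDH5 rose, at 5.53 to 6.62 CPM against 0.63 to 1.07 CPM. PECAM1 (0.298 to 0.401 against 0.354 to 0.429 CPM) and VWF (0.666 to 0.848 against 0.722 to 0.888 CPM) overlapped. PTPRC of leukocytes did not exceed 0.058 CPM in A375. Their part in the member changes was not tested. In these bulk libraries fewer cells expressing a gene and less RNA per cell cannot be told apart.

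A test of the difference itself asked which members responded to Dox otherwise in shMCM7 than in parental A375 cells. It called 6 members up (beside 4.37% of 16334 genes) and 10 down (beside 6.17% of genes), at a median of -0.14 beside 0.00 over all genes, and without uninduced replicate 1 it called 7 up and 11 down. The upward ones were THBS1, THBS4, FN1, AGRN, THBS3 and FBN1, and the downward ones MATN3, NID2, FBLN1, FBLN5, BGN, LAMC3, LUM, SDC4, SDC1 and GPC4. FBN1, BGN and GPC4 were called here although their change within shMCM7 cells was not, and POSTN, HSPG2, LTBP1 and FBN2 were called within shMCM7 cells but not here. The largest difference was that of MATN3 at a log2 of -1.75 (edgeR adjusted p = 7.01e-05). The FN1 difference of 0.76 had an adjusted p of 0.027 in edgeR, and the call was lost without 7 of the 12 libraries, each in turn (lowest log2 0.61). MATN3, NID2, FBLN1, FBLN5, BGN and THBS4 kept their calls whichever of the 12 was left out. THBS1 lost its call without parental noDox replicate 1 (0.77), AGRN without induced shMCM7 replicate 1 (0.54) and FBN1 without induced shMCM7 replicate 2 (0.58). THBS3 lost it without parental Dox replicate 1 (0.54), parental noDox replicate 3 (0.57) or induced shMCM7 replicate 3 (0.55), and LUM without parental noDox replicate 3 (-0.55) or induced shMCM7 replicate 3 (-0.58). SDC1 and SDC4 each lost it without 3 of the libraries, GPC4 without 5 and LAMC3 without 6, at values of -0.51 to -0.73.

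Cells carrying the hairpin differed from parental cells in a few matrix genes before any Dox was added. Of 46 members 4 were higher and 1 lower in uninduced shMCM7 cells, beside 1.17% and 0.478% of 16093 genes, or 1.65% in either direction (6 and 1 without uninduced replicate 1). Laminin alpha 1 (LAMA1), the embryonic alpha chain, was at 8.94, 8.94 and 9.81 CPM in uninduced shMCM7 libraries and 2.42, 2.86 and 2.61 CPM in parental ones, a log2 difference of 1.81 ± 0.09 (edgeR adjusted p = 7.29e-06). POSTN (2.47 ± 0.27, adjusted p = 0.00101), NID2 (1.39 ± 0.19, adjusted p = 0.00317) and LAMA5 (0.71 ± 0.15, adjusted p = 0.0351) were also higher, all in edgeR. The LAMA5 call was lost without parental replicate 1 (0.58) or 2 (0.65) or uninduced shMCM7 replicate 2 (0.68) or 3 (0.63), and the POSTN call in the fit that shared the dispersion over 12 libraries (adjusted p = 0.233). Without uninduced shMCM7 replicate 1, BGN (0.60) and MATN2 (0.86) were called too. GPC4 was lower at 2.42, 3.13 and 2.91 CPM against 5.03, 6.26 and 6.66 CPM (log2 -1.09 ± 0.13, edgeR adjusted p = 0.00172). LAMA1, NID2 and GPC4 thus held a gap between cell populations that the Dox contrast within shMCM7 cells does not show. Same-numbered libraries of these 2 groups deviated together, with r of 0.212 to 0.341 across genes, but a pairing is not established. With the replicate as a block MATN2 (0.65) was called as well.

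With Dox in both populations 7 members were higher and 10 lower in shMCM7 cells, beside 7.64% and 8.39% of 16086 genes, or 16.0% in either direction. Those higher were LAMA1 (log2 1.52), LAMA5 (1.38), THBS4 (1.33), THBS1 (1.25), FBN1 (0.73), THBS3 (0.72) and AGRN (0.64). Those lower were GPC4 (-1.71), MATN3 (-1.31), FBLN1 (-0.79), LUM (-0.78), FBN2 (-0.77), FBLN5 (-0.75), SDC1 (-0.67), SDC4 (-0.64), LAMC3 (-0.64) and TGFBI (-0.61). FN1 was not among them, and POSTN was called (3.82) only without parental Dox replicate 3. The calls of AGRN, FBN2, LAMC3, SDC4 and TGFBI each ended when some single library was left out, at log2 values of 0.45 to 0.53 for AGRN, -0.54 to -0.80 for FBN2, -0.46 to -0.67 for LAMC3, -0.58 for SDC4 and -0.51 to -0.55 for TGFBI. These comparisons share libraries with the ones above and their calls are not separate evidence.

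In A549 no member was called by label. Of 39 members tested in the libraries labelled shMCM7, 0 were called in edgeR, 0 had an unadjusted p under 0.05 and DESeq2 called 0, beside 0.0% of 13550 genes called and 61 with an unadjusted p under 0.05. Of 40 members tested in the libraries labelled parental, 0 were called in edgeR and in DESeq2 and 9 had an unadjusted p under 0.05, beside 0.0% of 13494 genes called and 1137 with such a p, with DESeq2 calling 9 genes. In the libraries labelled parental every Dox library was higher in 5 members and lower in 4, as in 8.88% and 11.7% of genes, and in those labelled shMCM7 it was so in 0 and 0 members, beside 1.31% and 1.61% of genes. Because MCM7 goes against these labels, the counts describe labels and not a known state of MCM7.

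Library by library, the A549 values of several members set the libraries labelled shMCM7 Dox replicate 3, shMCM7 noDox replicate 2 and parental noDox replicate 2 apart from the other 9; these genes were chosen after their values were seen. In that order, THBS1 was at 186, 171 and 172 CPM against 54.8 to 62.2 CPM in the others. SPARC was at 23.1, 29.7 and 26.3 CPM against 1.61 to 4.02 CPM. FN1 was at 822, 598 and 644 CPM against 280 to 469 CPM. Those 3 genes, and also TGFBI at 2593, 2379 and 2425 CPM against 1361 to 1528 CPM, were highest in the 3 libraries in which MCM7 is low. In A375 shMCM7 cells TGFBI leaned the other way, at 153, 169 and 132 CPM with Dox and 177, 191 and 183 CPM without, and was not called. MATN3 was lowest there, at 6.02, 8.14 and 9.12 CPM against 11.3 to 15.4 CPM. SDC4 was at 27, 29.7 and 29.6 CPM against 63.4 to 78.9 CPM. NID2 was at 5.16, 7.17 and 8.12 CPM against 13.1 to 19.7 CPM. SDC1 and LAMC3 were lowest in the same 3 libraries. LUM had only 2, 2 and 3 counts in them and 4 in shMCM7 Dox replicate 2, too few to order the libraries. HSPG2 was highest in the same 3 libraries, at 322, 264 and 195 CPM, and AGRN was highest in the first and second of them but not in the third. FBLN5 and FBN2 were lowest in these 3 libraries, but some others called in A375 did not follow. In the same library order FBLN1 was at 78.1, 77.7 and 60.4 CPM against 40.7 to 63.9 CPM in the other 9. LTBP1 was at 44.3, 42.1 and 49.4 CPM against 38.6 to 53.5 CPM. THBS3 was at 17.3, 18.2 and 14.8 CPM against 10.3 to 15.3 CPM. The share of all genes that set these 3 libraries apart was not counted, so the separation cannot be read as particular to matrix genes. Over all counted genes, each of the 3 also stood apart from its same-label replicates. Chi-square per degree of freedom was 37.6 to 66.7 for those pairs and 9.59 to 30.8 between the other replicates of the same labels. At the low end, HSPG2 and AGRN were lowest in shMCM7 Dox replicate 1, shMCM7 noDox replicate 3 and parental noDox replicate 1, with HSPG2 at 99.3, 119 and 113 CPM. The summed CPM of the 7 fibroblast markers also set the 3 libraries low in MCM7 apart, at 77.4, 82.6 and 71.3 CPM against 15.7 to 27.3 CPM in the other 9. In A549 that sum was mostly COL1A1 (9.48 to 64.7 CPM) and THY1 (4.55 to 17.6 CPM), while COL1A2 and COL3A1 did not exceed 0.049 and 0.27 CPM and CD248 was at 0 in all 12 libraries, and its part in the member values was not tested. No average or test was made over these libraries, since MCM7 itself would define the groups.

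**Figure D3:**
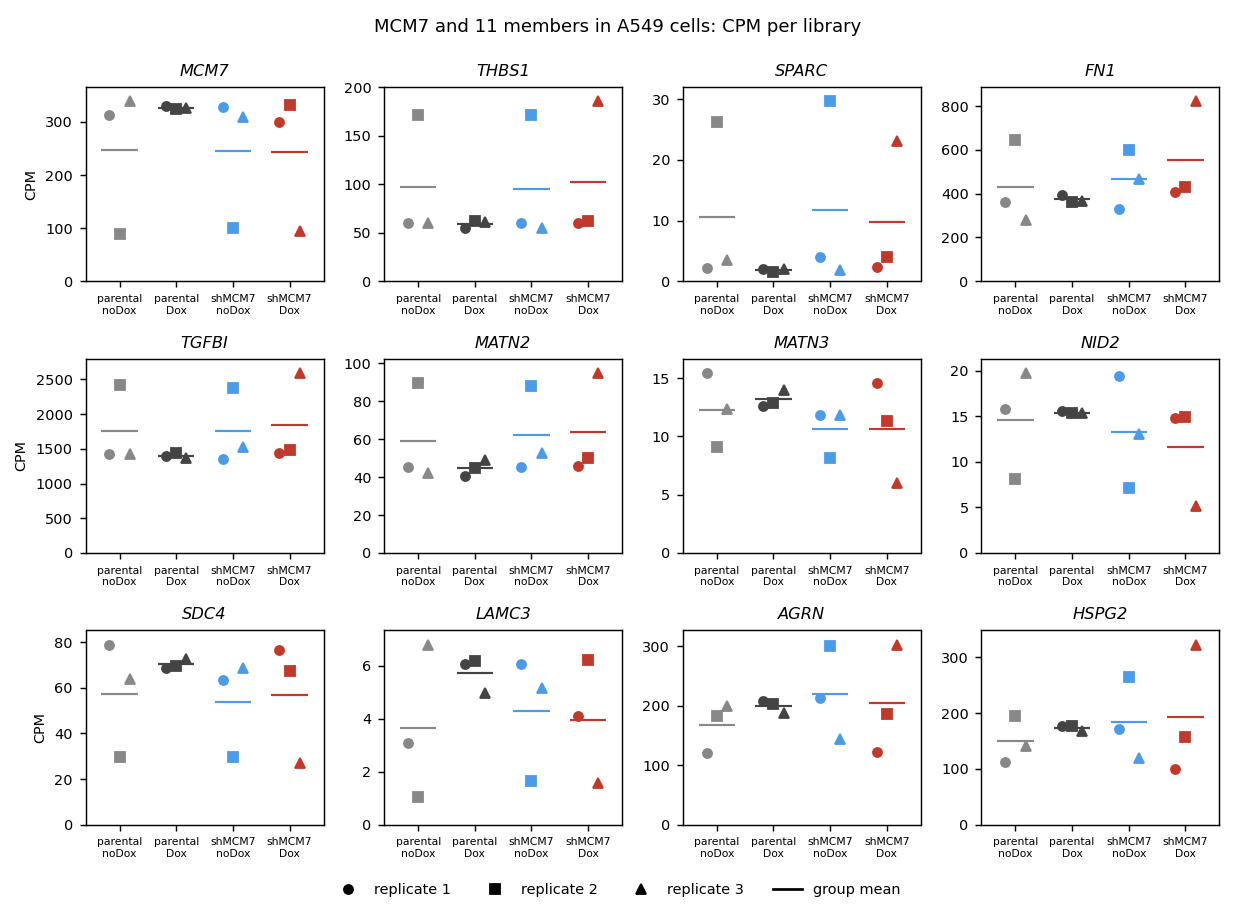
CPM (y axis, from 0) of MCM7 and 11 members in each of the 12 A549 libraries by labelled group, where each symbol is a library (its shape the replicate number) and the line is the mean of the labelled group. In the 3 libraries low in MCM7, THBS1 is 171 to 186 CPM and at most 62.2 CPM in the rest, and SDC4 is lower in them.

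The lines differed in their most abundant matrix genes. Per exon length, as the median RPKM (CPM per kilobase of exon) over 12 libraries, A375 led with SPARC (391), THBS1 (164), TNC (112), LAMB1 (96.3) and LAMC1 (84.2), and A549 with TGFBI (184), SDC1 (77.7), LAMB1 (61.0), LAMC1 (40.5) and SDC4 (26.0). In their classes the highest members were SPARC, LAMB1, nidogen-1 (NID1, 36.8), SDC4, BGN and LTBP3 in A375, and TGFBI, LAMB1, AGRN (18.0), SDC1, versican (VCAN, 13.1) and LTBP3 (9.07) in A549. The main shared chains were laminin beta 1 and gamma 1, and the alpha chains differed, with LAMA4 at 19.7 in A375 against 0.0573 in A549 and LAMA5 at 8.53 against 22.8.

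In counts, 26 of 47 members were higher and 17 lower in A375 (33.0% and 27.6% of 16305 genes), with a median log2 difference of 1.12 beside 0.09 over all genes. The genes not called were FN1, LAMB1, LAMB3 and HSPG2. FBN2, at a log2 difference of -8.27 ± 0.11 (edgeR adjusted p = 7.4e-24), and MATN2, at -6.26 ± 0.21, were the most A549-weighted members, with FBLN2 next at -5.24 ± 0.38. In the other direction BGN had 233078 counts in A375 and 14 in A549, a ratio of CPM of 1521 (95% interval 906.4 to 2782, counting error only). POSTN and decorin (DCN) had 0 counts in all 12 A549 libraries, against 2759 and 4499 counts in A375, which makes them at least 5.96-fold and 9.97-fold higher there at a floor of 3 counts. THBS2 had 2 counts against 10401 (ratio 475.1, 95% interval 131.5 to 3923). All 24 libraries enter this contrast and were normalised together for it, but line and sequencing depth cannot be told apart. The RPKM medians above rest on normalisation within each line.

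**Figure D4:**
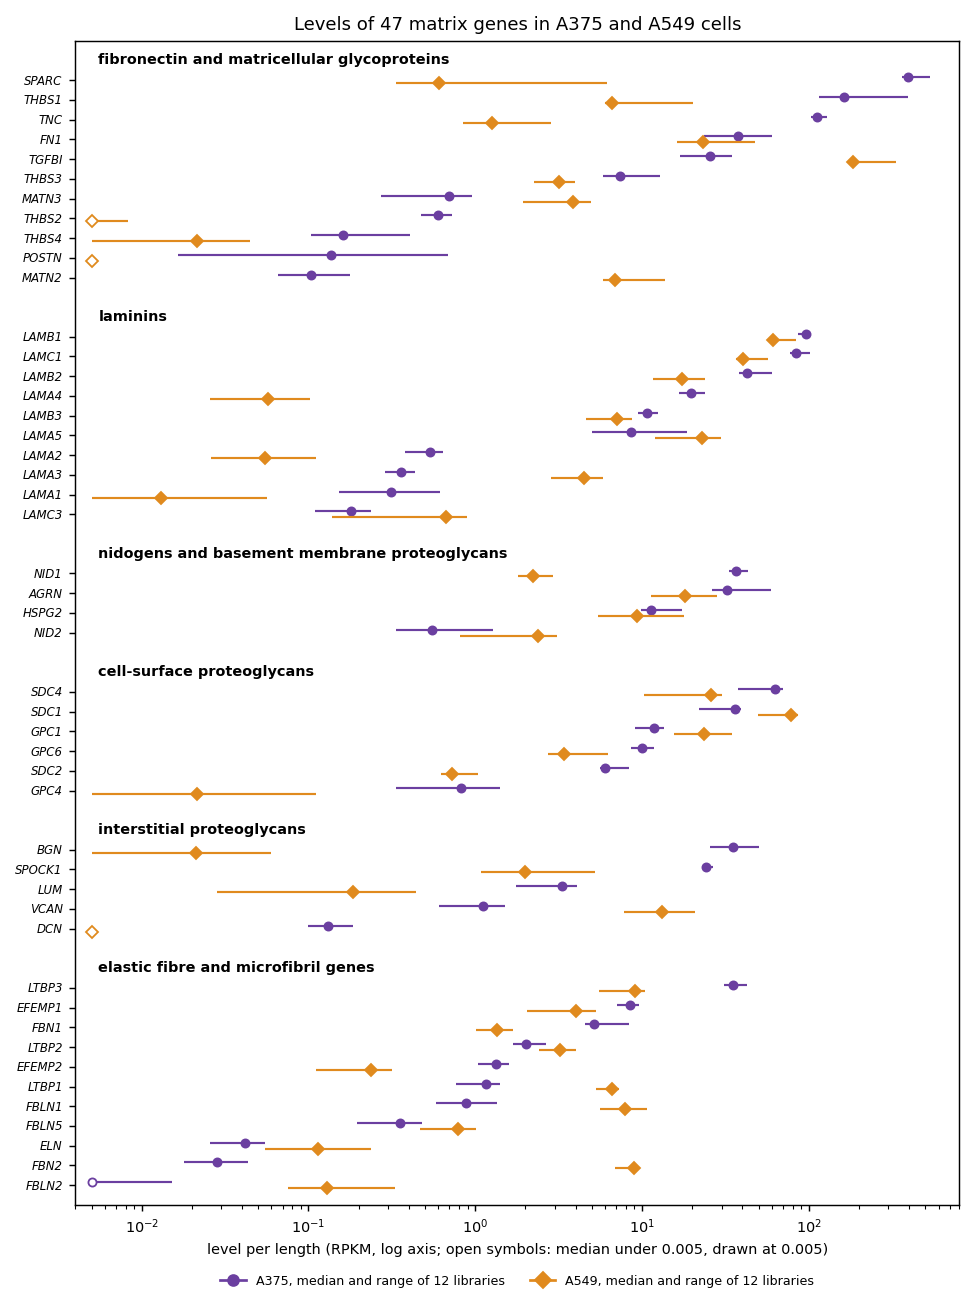
Median RPKM of each member in A375 and A549 (log axis), by class; horizontal bars span the lowest and highest of 12 libraries per line, and open symbols mark values under 0.005 drawn at 0.005. SPARC and BGN lie far higher in A375, FBN2 and MATN2 far higher in A549, and LAMB1 and FN1 close together.

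Promoter windows from RefSeq (GRCh38.p14, 250 bases before to 50 after a start) were read for 47 starts of 37 members. Stretches with the first pair of motifs below are shown for the members called in A375 shMCM7 cells, with the searched letters in capitals on either strand. The cyclic AMP response element TGACGTCA occurred in FN1 and LTBP1, in 2 of 47 member windows (4.255%) against 1.848% of all 35116, and the TEAD motif GGAATG in THBS1 and MATN3, among 6 of 47 (12.766%) against 14.033%.
FN1 (chr2:215436234-215436261, minus strand): cagtcccccgTGACGTCAcccggagccc
LTBP1 (chr2:32946849-32946876, plus strand): atctgccgccTGACGTCAcgtctgccgg
THBS1 (chr15:39581022-39581049, plus strand): aggaatccccaGGAATGcgagcgcccct
MATN3 (chr2:20012801-20012828, minus strand): cctcgcccagaCATTCCgtttctgccgc
FN1 and THBS1 were up-regulated and LTBP1 and MATN3 down-regulated in A375 shMCM7 cells with Dox, so each of these motifs was found before a gene of either direction. The AP-1 letters TGANTCA were in 3 of 47 windows (6.383%) against 7.709%, and the TATA box TATAAA in 4 of 47 (8.511%) against 7.33%. Called members among these were POSTN for both and FBLN5 for the TATA box.

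Genes that build, bind or process the matrix were read from 5 other lists in A375 shMCM7 cells, beside 5.58% up-regulated and 6.45% down-regulated of all tested genes. Related matrix families gave 1 up-regulated and 3 down-regulated of 30 tested (3.33% and 10.0%), with aggrecan (ACAN) at 2.52 ± 0.34 CPM with Dox against 5.92 ± 0.50 CPM (SD, n = 3; log2 -1.24). Glycosaminoglycan enzymes gave 2 and 5 of 39 (5.13% and 12.8%), with hyaluronan synthase 3 (HAS3) at 12.5 ± 0.94 against 28.7 ± 2.33 CPM (log2 -1.20). Cross-linking and processing genes gave 5 and 4 of 27 (18.5% and 14.8%), with LOXL3, a lysyl oxidase, at 381 ± 5.30 against 212 ± 43.3 CPM (log2 0.85), PLAU, a protease that activates plasminogen, at log2 1.04, and the aggrecanase ADAMTS4 at 2.24 ± 0.05 against 6.16 ± 1.36 CPM (log2 -1.46).

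The TGF-beta axis gave 2 and 3 of 21 (9.52% and 14.3%). Of the ligands TGFB2 was up-regulated (log2 1.16), TGFB3 was down-regulated (log2 -0.71) and TGFB1 was down-regulated, at 57.0 ± 5.91 against 95.7 ± 6.41 CPM (log2 -0.75), and the receptor TGFBR2 was up-regulated at 123 ± 6.75 against 68.5 ± 5.60 CPM (log2 0.84). Matrix receptors gave 0 and 3 of 24 (0.0% and 12.5%), among them integrin beta 8 (ITGB8), a partner in latent TGF-beta activation, at 38.8 ± 2.75 against 96.2 ± 15.5 CPM (log2 -1.31), ITGB4 (-0.64) and LRP4 (-0.66).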

How the data were processed

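For each of 24 libraries, the authors deposited raw counts of reads per Ensembl gene, without normalization, made with STAR 2.7.1 and featureCounts per the submitters' processing notes; the strand setting is not given in the sources used here. Names, positions and exon lengths came from GENCODE 29. Groups came from the labels, kept for A549. Counts were tested with edgeR 4.0.16 (R 4.3.3, TMM, filterByExpr, glmQLFit, glmQLFTest, prior count 0.125), checked on simulated data, and called at a fold of at least 1.5, p under 0.01 and adjusted p under 0.05. CPM used TMM factors within each line. Alternatives included DESeq2 1.42.0, filters, other fold tests, a replicate block and leaving out each library. Intervals and floors cover counting error only. The study describes biological replicates without saying how they were separated.

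The members and lists were chosen with earlier results of these data known. Named genes are all members called in the A375 Dox contrast or its difference from parental cells, in parental cells or in A549. Also named are the highest of each class per line and the 3 largest folds each way between lines. MCM7 and the 3 smallest p between shMCM7 and parental cells were added. Of the other lists only some called genes are named, not always those with the smallest p. Others were chosen after their values were seen. Same-numbered libraries of uninduced shMCM7 and parental A375 cells deviated together (r = 0.212 to 0.341 across genes); no label states a pairing. Scrambled-hairpin cells were not analysed here, and 1 gene of another list is not reported here. Figures were drawn with matplotlib 3.10.9.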

Additional observations from a re-analysis of the deposited data

Results flagged for a closer look

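The Dox effect on 16 members differed between shMCM7 and parental A375 cells by the contrast of the effects in edgeR over 12 libraries, at an adjusted p under 0.05 and at least 1.5-fold. The log2 difference, shMCM7 minus parental, was 0.93 for THBS1, 0.81 for THBS4, 0.76 for FN1, 0.73 for AGRN, 0.64 for THBS3 and 0.63 for FBN1. It was -1.75 for MATN3, -0.97 for NID2, -0.95 for FBLN1, -0.94 for FBLN5, -0.86 for BGN, -0.76 for LAMC3, -0.67 for LUM, -0.63 for SDC4, -0.63 for SDC1 and -0.62 for GPC4. BGN was at 86.6, 92.3 and 107 CPM in parental cells with Dox and 67.6, 73.4 and 88.5 CPM without, so that its difference holds an opposite lean in the parental libraries, which was not called there.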

How the results depend on the processing

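A test against a 1.5-fold change (edgeR glmTreat) left 1 member up and 1 down for Dox in A375 shMCM7 cells, 0 down between uninduced populations, 4 up and 2 down between populations with Dox, and 0 up and 1 down for the difference in Dox effect. Asking for 10 counts in every library left 35 members between the lines, with 16 higher in A375, since fewer members were tested. Leaving out 1 library gave 4 to 8 members up and 7 to 12 down for Dox in A375 shMCM7 cells, the 4 without induced replicate 3, when THBS3, POSTN and HSPG2 lost their calls. It gave 3 to 6 up and 1 down between uninduced populations, 6 to 8 up and 7 to 9 down with Dox, 4 to 7 up and 7 to 12 down for the difference, and 26 to 27 higher and 17 lower in A375 than A549, while parental A375 and both A549 contrasts stayed at 0. With a replicate block the Dox counts in A375 shMCM7 cells were 6 up, AGRN (0.58) being lost, and 10 down, and for the difference 7 up and 11 down; same-numbered libraries of these groups deviated together with r of 0.0881 to 0.256, so the pairing is not established and they share only a number. The block changed no other count of calls by over 1.5 times. Of 3630 alternative values of named members 3495 kept their side of the threshold, 110 lost a call, 25 gained one and 0 called values changed sign. A change of sign between fits that both gave no call was counted as kept. The uncalled POSTN difference between populations with Dox ran from -0.25 to 3.82 when 1 library was left out. The A549 depth limits members near the floor of 0.1675 CPM.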
